A study of Mus musculus with 12 samples.

Results

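Pachytene spermatocytes were compared at once with the cell types sampled before and after them, type B spermatogonia and round spermatids. The comparison used 9 of 12 arrays: the pachytene, type B and round spermatid arrays of each of 3 Affymetrix designs, U74Av2, U74Bv2 and U74Cv2, which carry partly different genes. The remaining arrays held type A spermatogonia and are given as a further level. All arrays carried total RNA of isolated mouse germ cells, labelled by a one-cycle method, and the values are MAS5 signals, the brightness of a probe set on a linear scale. Strain, age, genotype and the isolation method are not given in the sources used here, and no treatment is named for any group.

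A gene was called transient where its pachytene signal was at least 4-fold over both neighbours, and a dip where it was at least 4-fold under both. Signals under a floor of 50.01 to 50.03 units were set to it, so a ratio against a floored signal is a lower bound, written as "at least". Of 15964 named genes on the arrays, 12709 exceeded the floor in at least 1 of the 3 cell types and are called measured. Among them 101 (0.795%) were transient and 19 (0.15%) were dips. At 2-fold, 610 genes (4.8%) lay over both neighbours and 304 (2.39%) under both.

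There was 1 array per cell type and design, so none of these differences has a replicate error and no test was run. Both differences of a gene also use the same pachytene reading: an error in it moves both the same way. The control probe sets carried by all designs give a measure of technical spread. Over the 3 designs the log2 difference of the same control probe set had an SD of 0.23 for pachytene minus type B and 0.44 for pachytene minus round spermatids (29 control probe sets). Array medians lay between 42.6 and 75.9 units, and between 45.8% and 61.1% of probe sets exceeded the floor on these 9 arrays. Probe sets for sequences foreign to the mouse serve as negative controls: the brightest of them gave 103.5 units on type B U74Cv2 and at most 69.1 units on any other array, so signals that low are not told from background.

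Pachytene is the long stage of meiotic prophase in which homologous chromosomes are held together by the synaptonemal complex and exchange DNA. At this stage the X and Y chromosomes, largely unpaired, are packed into the sex body and their genes are silenced, while many autosomal genes of meiosis and of the later sperm are switched on, in part through the transcription factor A-MYB, the product of Mybl1. Small RNAs that bind PIWI proteins, called piRNAs, are made in large amounts then. Because these are bulk RNA samples, fewer cells of a type and less RNA per cell cannot be told apart.

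The markers chosen for pachytene cells read highest in that cell type. Cers3, the ceramide synthase that makes ceramides with very long chains, read 58.9 in type A, 12.5 in type B, 4417 in pachytene and 279.95 in round spermatids. Its pachytene signal was therefore at least 88.3-fold over type B and 15.8-fold over round spermatids, where Cers3 still stood at least 5.60-fold over type B. Tcam1, a testicular cell adhesion molecule, read 277.5, 100.4, 6536 and 686.8 in the same order. It was 65.1-fold over type B, whose reading was below the brightest negative control there, and 9.52-fold over round spermatids. Rnf17, a tudor domain protein of germ cell granules, read 33.8, 33.1, 485.05 and 45.0: only the pachytene signal exceeded the floor, and it lay at least 9.70-fold over every other cell type. Summed over these 3 genes the signal was 370.3 in type A, 146.02 in type B, 11439 in pachytene and 1012 in round spermatids. These genes came with the definition of the comparison, so their shape describes the arrays and supports no count.

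The gene with the largest height, which is the smaller of its log2 differences over the neighbours, was 1700040D17Rik. It read 74.1 in type A, 71.5 in type B, 2267 in pachytene and 41.4 in round spermatids, which is 31.7-fold over type B, from a reading below the brightest negative control, and at least 45.3-fold over round spermatids. The 250 bases before its start are shown with those of Cers3 and Tcam1, because these genes have pachytene signals far over both neighbours and the gene of A-MYB, Mybl1, is itself transient. Sequences are RefSeq's, build GRCm38.p6, written 5′ to 3′ on the gene's strand in lower case, and capitals mark a match to the MYB motif AACTGNC on either strand. The window of 1700040D17Rik is chr3:94412956-94413205 on the minus strand, that of Cers3 is chr7:66743254-66743503 on the plus strand, and that of Tcam1, of whose 2 listed starts the first is shown, is chr11:106276422-106276671 on the plus strand.
1700040D17Rik: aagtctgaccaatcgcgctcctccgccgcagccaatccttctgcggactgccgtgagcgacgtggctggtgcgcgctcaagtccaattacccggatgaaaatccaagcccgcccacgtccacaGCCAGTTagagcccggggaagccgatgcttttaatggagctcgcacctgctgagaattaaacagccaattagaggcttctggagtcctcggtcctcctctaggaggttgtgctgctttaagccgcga
Cers3: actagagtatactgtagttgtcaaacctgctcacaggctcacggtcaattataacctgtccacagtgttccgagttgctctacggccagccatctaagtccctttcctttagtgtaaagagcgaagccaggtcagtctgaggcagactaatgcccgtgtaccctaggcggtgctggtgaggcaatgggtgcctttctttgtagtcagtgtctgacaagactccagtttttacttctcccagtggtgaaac
Tcam1: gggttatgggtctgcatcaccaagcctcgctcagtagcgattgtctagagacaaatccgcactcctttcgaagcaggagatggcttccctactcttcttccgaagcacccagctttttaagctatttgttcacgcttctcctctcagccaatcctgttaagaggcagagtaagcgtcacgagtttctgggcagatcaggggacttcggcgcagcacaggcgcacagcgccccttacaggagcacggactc
The motif occurred in 1700040D17Rik, 127 bases before the start on the opposite strand, and its letters are not in the windows of Cers3 and Tcam1. Counted over 300-base windows, from 250 bases before to 50 after the start, 9 of 75 transient genes with a listed promoter (12%) held a match, against 1392 of 10177 measured genes (13.7%). Genes at least 4-fold over type B that were not transient held one in 140 of 724 windows (19.3%). The motif TGACGTCA, bound by CRE factors, was in 2.67% of transient and 3.20% of all windows, and GTTGCCA, part of the site of RFX factors, in 8% and 4.98%, both searched on both strands. A match is a stretch of letters and no evidence of binding.

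**Figure D1:**
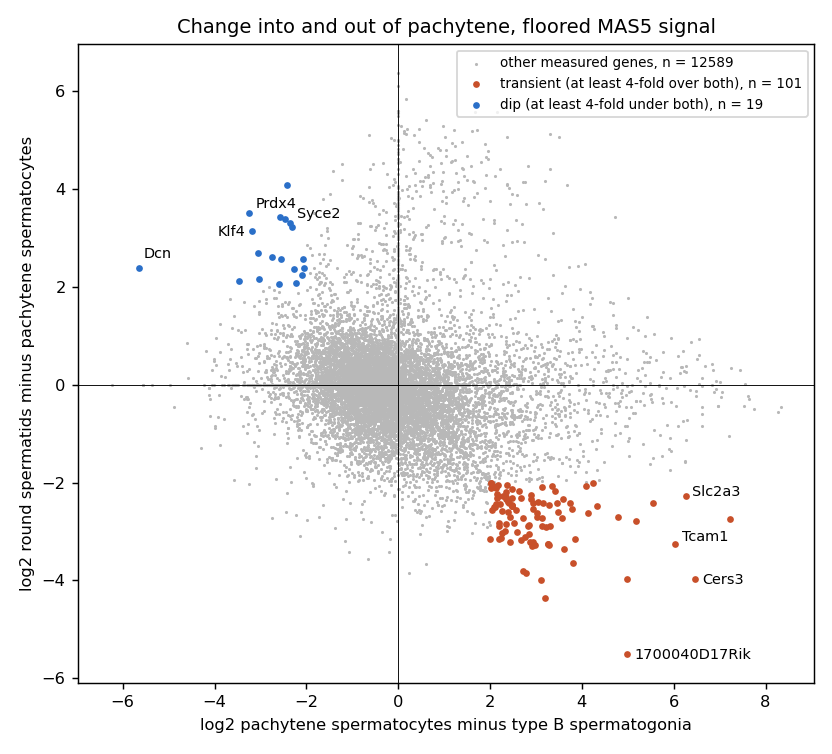
Each point is 1 of 12709 measured genes: the x axis gives the log2 difference of pachytene spermatocytes minus type B spermatogonia, the y axis that of round spermatids minus pachytene spermatocytes, with signals under the floor set to it. The 101 transient genes lie at the lower right, with 1700040D17Rik lowest and Cers3, Tcam1 and Slc2a3 far to the right, and the 19 dips lie at the upper left, with Dcn farthest left.

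Most genes that were high in pachytene were still high afterwards. Of 970 genes at least 4-fold over type B in pachytene (7.63% of those measured), 603 (62.2%) differed by less than 2-fold between pachytene and round spermatids. Another 164 were 2-fold to 4-fold lower in round spermatids and 101 at least 4-fold lower, which are the transient genes, while 55 were 2-fold to 4-fold higher and 47 at least 4-fold higher. Transience was thus a feature of 101 of the 255 genes (2.01% of those measured) that were at least 4-fold lower in round spermatids than in pachytene. On the other side, of 668 genes at least 4-fold under type B in pachytene (5.26%), 549 (82.2%) stayed within 2-fold in round spermatids. Of these 668, 72 were 2-fold to 4-fold higher in round spermatids and 19 at least 4-fold higher, the dips. They were 19 of the 499 genes (3.93%) that were at least 4-fold higher in round spermatids than in pachytene. Near the limit lay, inside, Dnajc28 with 4.01-fold over round spermatids and AI429214 with 4.01-fold, and outside, Faah with 3.98-fold over round spermatids and Zup1 with 3.99-fold over type B. For the dips, Hat1 with at least 4.16-fold and Atp10b with at least 4.18-fold were the nearest inside, and Suv39h2 with at least 3.96-fold and Zfp652 with at least 3.98-fold the nearest outside.

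The transient genes had a median signal of 117.2 in type A, 85.6 in type B, 706.7 in pachytene and 117.8 in round spermatids, which is the shape the rule selects. Their pachytene signals ran from 206.7 to 7485. The median height was 2.43 and 12 of the 101 were at least 8-fold over both neighbours. Round spermatids came back to within 2-fold of type B in 78 of the 101, were 2-fold to 4-fold over type B in 10 and at least 4-fold over it in 9, and were 2-fold to 4-fold under it in 4. Type A spermatogonia did not enter the rule: the pachytene signal was at least 4-fold over type A too in 79 of the 101, 2-fold to 4-fold over it in 15 and less in 7. All 3 cell types exceeded the floor in 64 of the 101, type B was at the floor in 29, round spermatids in 24 and both in 16. In 44 genes a neighbour read below the brightest negative control on the same array.

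Among the transient genes over the floor in all 3 cell types, Kctd7, of the BTB domain family, read 217.2 in type A, 50.8 in type B, 1605 in pachytene and 102.8 in round spermatids. Its pachytene signal was 31.6-fold over type B, which read under the negative controls, and 15.6-fold over round spermatids. Gmcl1, the mouse relative of the fly gene germ cell-less, read 670.5, 453.05, 6317 and 504.02, so both neighbours were well over background and pachytene was 13.9-fold and 12.5-fold over them. A further probe set of Gmcl1 gave a height of 1.06, which is just over 2-fold. Sav1, a scaffold of the Hippo kinase pathway, read 237.5, 144.9, 1390 and 145.2, with both neighbours alike and pachytene 9.59-fold and 9.58-fold over them. Its other measured probe sets gave 0.57 and -0.19, so the shape of Sav1 rests on 1 probe set.

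Rb1cc1, a subunit of the complex that starts autophagy, read 194.6 in type A, 114.4 in type B, 1656 in pachytene and 185.2 in round spermatids. It was 14.5-fold over type B and 8.95-fold over round spermatids, and its other probe sets gave heights of 2.84 and 1.21. Baz1a, of a chromatin remodelling complex, read 275.8, 279.04, 2392 and 149.4, with pachytene 8.57-fold over type B and 16.02-fold over round spermatids. Of its 3 other measured probe sets 2 were past 4-fold, the highest at 2.89, and 1 gave -0.91. The RIKEN genes 4930524B15Rik and 4930579G24Rik completed the 8 largest: the first was 12.3-fold over type B and 10.2-fold over round spermatids, the second 9.23-fold and 20.5-fold.

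Genes with a neighbour at the floor give only bounds. Apart from 1700040D17Rik, Cers3 and Rnf17, the highest bounds belonged to Cdc42ep4, Atp8b5, 1700029M20Rik, Gm6653 and Mgat5. Cdc42ep4, an effector of the small GTPase Cdc42, read 102.9 in type A, 40.5 in type B, 477.1 in pachytene and 35.7 in round spermatids, at least 9.54-fold over both neighbours. Atp8b5, a phospholipid flippase of male germ cells, read 119.4, 45.9, 1800 and 259.9, at least 35.97-fold over type B and 6.93-fold over round spermatids. For 1700029M20Rik the values were 151.1, 47.3, 7485 and 1119, at least 149.6-fold and 6.69-fold. Gm6653 was 6.61-fold over type B and at least 13.9-fold over round spermatids, and Mgat5, an enzyme that branches sugar chains of glycoproteins, at least 6.59-fold over both.

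Where a gene has several probe sets, they give a partly independent reading, since the rule used only the brightest one on average. Of the 101 transient genes 39 had another measured probe set. In 9 of the 39 another was also at least 4-fold over both neighbours, in 19 at least 2-fold, in 32 some other lay in the same direction, and in 7 none did. Over all single measured probe sets, with or without a gene name, 155 of 24117 (0.643%) were transient and 36 (0.149%) were dips. Of the other probe sets of transient genes, 23 of 64 (35.9%) were at least 2-fold over both, against 372 of 7343 (5.07%) of the probe sets of all measured genes that did not represent their gene. Tcam1, with 2.75, Mllt10, a cofactor of histone methylation, with 2.82, Slc2a3 with 2.60 and 2.32, and Mybl1 with 2.23 were among those whose other probe sets agreed at 4-fold. Apba1, an adaptor protein, gave -1.43 and Mlc1, a membrane protein, -1.89 in the other probe set. Of the 19 dips 7 had another measured probe set: none was 4-fold under both neighbours, that of Hat1 was 2-fold under, with a depth of 1.59, and in 4 genes none lay in the same direction.

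**Figure D2:**
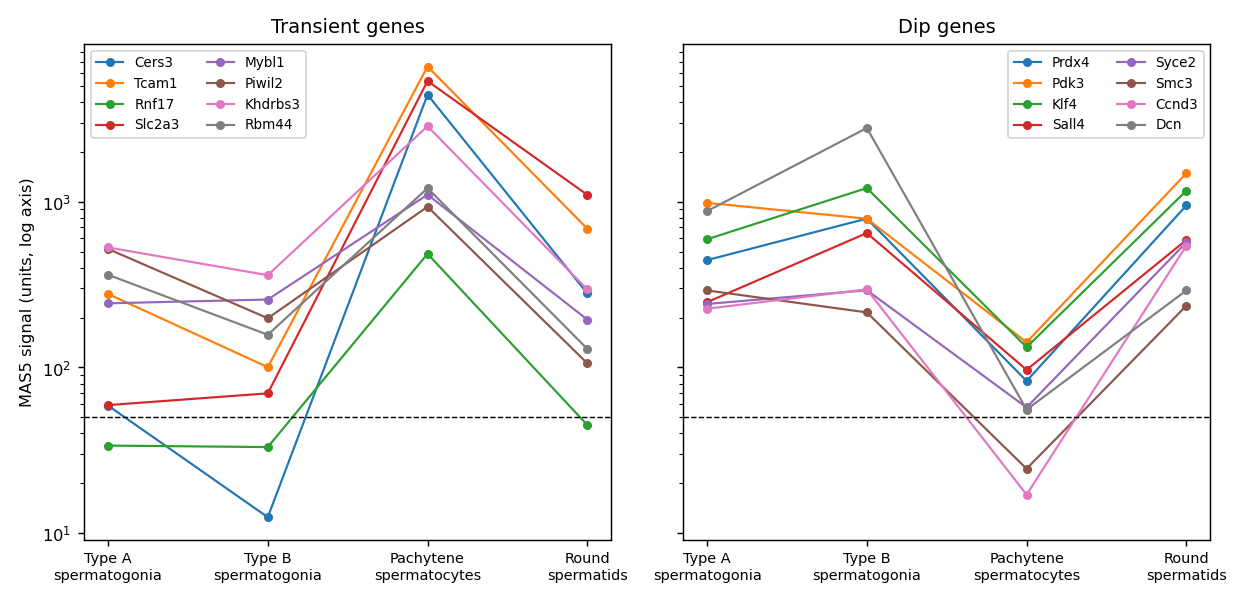
MAS5 signal on a log axis for 8 transient genes (left) and 8 dips (right) in the 4 sampled cell types, 1 array each, with the dashed line at the floor. Every transient gene peaks in pachytene spermatocytes, with Cers3, Tcam1 and Slc2a3 still well over their type B level in round spermatids, and every dip has its lowest point there, Smc3 and Ccnd3 under the floor. Heights of lines of different genes come from different probes and are not comparable.

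The piRNA pathway and chromatoid body list had 15 measured members, of which 3 (20%) were transient and none a dip. Over all measured genes 0.795% were transient. Rnf17, 1 of the 3, is a marker that came with the definition of the comparison, so it supports no count. Its median log2 difference was 2.29 for pachytene minus type B and -0.13 for round spermatids minus pachytene, against -0.24 and 0.00 over all measured genes. Of the 15, 10 were at least 2-fold over type B in pachytene (16.6% of all measured genes were). Of these 10, 5 were also at least 2-fold over round spermatids, Rnf17 among them (33.3% of the list, against 4.8% of all measured genes). Besides Rnf17, the transient members were Piwil2 and Mybl1. Piwil2, the PIWI protein MILI, which loads the first piRNAs, read 518.7 in type A, 198.1 in type B, 932.2 in pachytene and 105.98 in round spermatids: 4.71-fold over type B and 8.80-fold over round spermatids, but 1.80-fold over type A. Mybl1 read 243.8, 256.9, 1103 and 194.5, with its other cell types alike and pachytene 4.29-fold over type B and 5.67-fold over round spermatids. At 2-fold Pld6, a mitochondrial protein of piRNA production, and Tdrd6, a tudor domain scaffold of chromatoid bodies, joined them. Tdrd6 read 67.4 in type B, 9996 in pachytene and 4819 in round spermatids, 2.07-fold lower in the last. The helicase genes Ddx4 and Ddx25, and Mael and Tdrd7, were not transient: Ddx4 read 370.2 in type B, 1811 in pachytene and 1656 in round spermatids, and Tdrd7 261.6, 2539 and 4192.

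Genes of the synaptonemal complex and of cohesin, the ring that holds sister chromatids together, read differently on these arrays. Of 16 measured members none lay 2-fold over both neighbours, 2 (12.5%) were dips and 3 (18.8%) lay 2-fold under both. Over all measured genes the shares were 4.8%, 0.15% and 2.39% in that order. Syce2, of the central element of the complex, read 241.5 in type A, 292.3 in type B, 57.4 in pachytene and 568.7 in round spermatids, which is 5.09-fold under type B and 9.91-fold under round spermatids. Smc3, a core cohesin subunit, read 291.5, 214.9, 24.5 and 235.8, at least 4.30-fold and at least 4.71-fold under its neighbours. Rec8, the meiotic cohesin subunit, read 1127, 978.8, 442.7 and 1908. Each of these rests on a single array, Syce2 and Smc3 have 1 probe set each, and both came under 4-fold when the arrays were scaled to a common median (depths of 1.83 and 1.80). Other members read highest in pachytene: Syce1 had 1420 in type B, 6753 in pachytene and 4550 in round spermatids, and Stag3, the meiotic STAG subunit of cohesin, 5855, 12714 and 7556, so that round spermatids were nearer to pachytene for Syce1 and to type B for Stag3. Sycp3, a main component of the axis of the complex, exceeded the floor in pachytene only, at 60.4, below the brightest negative control there (61.2), so its level could not be read here.

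None of 24 measured recombination and repair genes was called in either direction at 4-fold. Over all measured genes 0.795% were transient and 0.15% dips, so a list of this size can hold none at the overall share. At 2-fold 2 (8.33%) were transient, against 4.8% of all measured genes. These were Spo11, the nuclease that makes meiotic breaks, and Mlh3, which acts in crossover resolution. Spo11 read 996.8 in type A, 678.8 in type B, 4109 in pachytene and 1559 in round spermatids, 6.05-fold over type B and 2.63-fold over round spermatids. Of 16 genes of the machinery that silences the sex chromosomes, none was called at 4-fold, which the overall shares allow as well. At 2-fold Atr and Mdc1 (12.5%) were over both neighbours, against 4.8% of all measured genes. Atr, the kinase that acts on unpaired chromosome axes, read 539.2, 1736 and 451.2 in type B, pachytene and round spermatids, and Mdc1, which spreads that signal along chromatin, 400.95, 1529 and 558.2. Suv39h2, a histone methyltransferase of the testis, read 197.9, 29.8 and 360.8, just outside the limit for a dip.

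Among 34 genes of G2 and the meiotic divisions 1 (2.94%) was transient, against 0.795% of all measured genes. Cks2, a subunit of cyclin-dependent kinases needed in the first meiotic division, read 708.9 in type A, 475.04 in type B, 2387 in pachytene and 301.5 in round spermatids: 5.03-fold over type B, 7.92-fold over round spermatids and 3.37-fold over type A. At 2-fold 3 (8.82%) were over both neighbours, Cks2 and the kinase genes Nek2 and Bub1b, against 4.8% of all measured genes. The phosphatase gene Cdc25c was under both (2.94%, against 2.39%). Of 24 meiotic and spermatid transcription regulators, Mybl1 was the transient one (4.17%, against 0.795% of all measured genes). At 2-fold 3 regulators (12.5%) were over both neighbours and 2 (8.33%) under both, against 4.8% and 2.39%. Tcfl5, a basic helix-loop-helix factor of the testis, was 2-fold transient with 597.4 in type B, 7977 in pachytene and 3215 in round spermatids. Dmrt1, a regulator of the switch from mitosis to meiosis, and Hsf2, a heat shock factor, lay 2-fold under both neighbours.

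Of 28 measured genes known from spermatocytes, a list that holds the 3 markers and was put together with these data known, 4 (14.3%) were transient: Cers3, Tcam1, Rnf17 and Slc2a3. Over all measured genes 0.795% were transient, and the 3 markers support no count. The list shows the difference between high and transient plainly, since 25 of the 28 were at least 2-fold over type B, against 16.6% of all measured genes, with a median log2 difference of 4.72, whereas the median for round spermatids minus pachytene was 0.07. Slc2a3, the glucose transporter GLUT3, read 59.3 in type A, 69.8 in type B, 5344 in pachytene and 1100 in round spermatids. It was 76.6-fold over type B and 4.86-fold over round spermatids, which themselves stood 15.8-fold over type B.

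RNA binding and translation control genes included transient members and, at 2-fold, genes low in pachytene. Of 28 measured members 3 (10.7%) were transient, against 0.795% of all measured genes, and none a dip. At 2-fold 6 (21.4%) lay over both neighbours and 3 (10.7%) under both, against 4.8% and 2.39%. Khdrbs3, a splicing regulator, read 529.5 in type A, 360.4 in type B, 2855 in pachytene and 295.8 in round spermatids, 7.92-fold and 9.65-fold over the neighbours. The other probe set of Khdrbs3, on another design, gave a height of 0.29, so its shape rests on 1 probe set. Rbm44, a protein of the bridges between germ cells, read 362.4, 157.5, 1207 and 129.5, 7.66-fold and 9.32-fold over the neighbours but 3.33-fold over type A. Cpeb2, of the proteins that regulate poly(A) tail length, read 66.9, 66.8, 404.2 and 35.9, 6.05-fold over type B and at least 8.08-fold over round spermatids. Paip1 and Paip2, which bind the poly(A)-binding protein and respectively favour and restrain translation, lay on opposite sides. Paip1 read 164.7 in type B, 466.6 in pachytene and 78.3 in round spermatids, and Paip2 415.3, 81.5 and 163.7, with its relative Paip2b at 516.95, 148.9 and 418.3. Dazl, a germ cell RNA-binding protein, read 1741, 213.5 and 578.8.

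None of 27 sperm tail, 25 acrosome, 25 late spermatid, 11 histone, 34 ribosomal and 43 respiratory chain genes was transient or a dip at 4-fold; with 0.795% and 0.15% over all genes, lists of these sizes can hold none at the overall share. At 2-fold 3 of the 27 sperm tail genes (11.1%), Dnah8, Dnali1 and Rsph1, were over both neighbours, against 4.8% of all measured genes. Of the respiratory chain genes 1 (2.33%) was over both as well. Of the acrosome genes 1 (4%) was under both, against 2.39% of all measured genes. In the ceramide and very long chain lipid list, Cers3 was the single transient of 28 (3.57%, against 0.795% of all measured genes). Cers3 is a marker that came with the definition of the comparison, so it supports no count. The median of the list for pachytene minus type B was -1.06, against -0.24 over all measured genes. Sgpp2, a phosphatase of sphingosine phosphate outside that list, had the profile nearest to that of Rnf17 among 3255 genes of U74Cv2, with a distance of 0.30 on the log2 scale over 4 cell types, followed by 4930524B15Rik at 0.34 and 4933404O12Rik at 0.37. For Tcam1 the nearest were Cracd at 0.60, Atp8b5 at 0.63 and Cers3 at 1.23. For Cers3 they were Tcam1, 1700029M20Rik at 1.48 and Cracd at 1.54. These distances use floored signals: Rnf17 was under the floor in all cell types but pachytene, Cers3 in type B, and the type B reading of Sgpp2, 75.2, was below the brightest negative control, so the order of neighbours is a description only. The profile of Cracd rests on 1 probe set with a special ending, and its height turned to -0.75 without such probe sets.

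**Figure D3:**
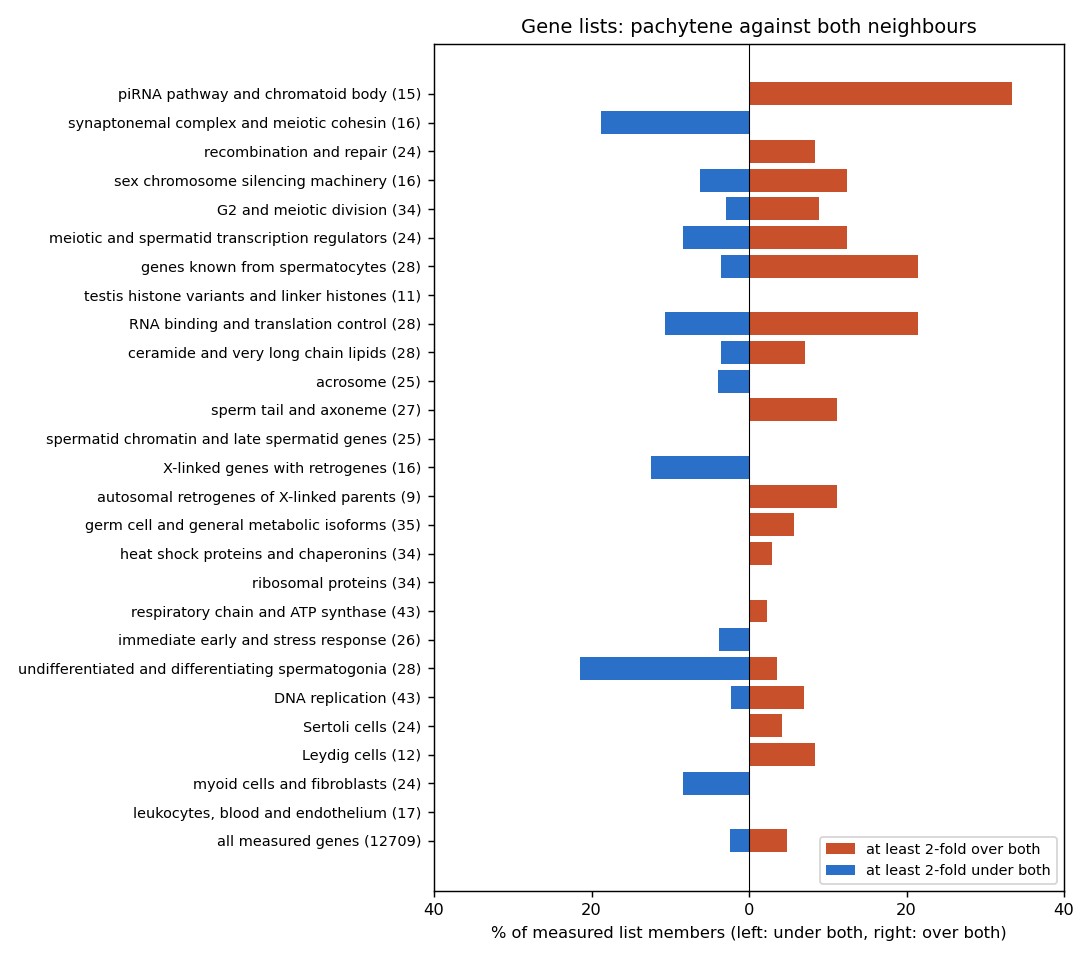
For each of 26 gene lists, with the number of measured members in parentheses, bars to the right give the percentage of members at least 2-fold over both neighbours in pachytene and bars to the left the percentage at least 2-fold under both; the bottom row is all 12709 measured genes, at 4.80% and 2.39%. The piRNA list has the longest bar to the right with 5 of 15 members, the marker Rnf17 among them. The spermatogonia and synaptonemal complex lists have the longest to the left with 6 of 28 and 3 of 16.

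Regulators among the remaining transient genes, chosen here after their values were seen, included Fbxo43, the meiotic inhibitor of the anaphase-promoting complex also called EMI2. It read 15.5 in type A, 21.0 in type B, 447.3 in pachytene and 83.98 in round spermatids, at least 8.94-fold over type B and 5.33-fold over round spermatids. Pbk, a mitotic kinase, read 577.6, 410.2, 4853 and 729.6, 11.8-fold and 6.65-fold over its neighbours. Pou5f2, a POU factor of the testis, read 129.6, 92.02, 701.7 and 120.4, and Pcgf6, of a Polycomb complex, 228.4, 144.2, 1931 and 363.1. The nuclear receptor gene Nr2c2 read 176.6, 134.3, 858.9 and 171.7, and the GTPase gene Nras 328.9, 199.5, 818.9 and 138.8. Cfap54, a protein of the ciliary axoneme, read 6.0 in type A, 5.6 in type B, 261.6 in pachytene and 42.99 in round spermatids. The type B readings of Fbxo43, Pou5f2 and Cfap54 were below the brightest negative control of their arrays.

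The dips had a median signal of 354.6 in type A, 545.8 in type B, 57.4 in pachytene and 542.9 in round spermatids, which is again the shape of the rule. Pachytene was at the floor in 8 of the 19, and 11 were over the floor in all 3 cell types. The median depth, which is the smaller log2 difference under the neighbours, was 2.35. In 16 of the 19, round spermatids were within 2-fold of type B, and in 16 pachytene was also at least 4-fold under type A. Dips depended more on the treatment of low signals than transient genes did: with no floor 325 genes dipped, while a floor at 0.8 of the trimmed mean left 7.

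Prdx4, an X-linked peroxidase of the endoplasmic reticulum, had the largest depth with signals under the floor set to it. Where pachytene is at the floor the depth is a bound, and with other treatments of low signals that of Ccnd3 reached 4.11. Prdx4 read 444.3 in type A, 791.1 in type B, 82.9 in pachytene and 948.8 in round spermatids, 9.54-fold under type B and 11.4-fold under round spermatids. Its other measured probe set had a depth of 0.65. Klf4, a Krüppel-like transcription factor found in testis and skin, read 593.6, 1209, 132.6 and 1165, 9.11-fold and 8.79-fold under the neighbours. Gchfr, the feedback regulator of tetrahydrobiopterin synthesis, was 8.26-fold and 6.47-fold lower, on a probe set with a special ending, and its depth was 0.00 without such probe sets. Sall4, a zinc finger factor of spermatogonia, read 247.7, 647.0, 96.8 and 587.8, but its other measured probe sets had a depth of 0.00. Atp5mpl, a small protein of the ATP synthase, read 1265, 1068, 181.4 and 1081, with its neighbours alike and pachytene 5.89-fold and 5.96-fold under them.

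Dcn, the matrix proteoglycan decorin, read 877.8 in type A, 2783 in type B, 55.7 in pachytene and 291.4 in round spermatids. It was 49.96-fold under type B and 5.23-fold under round spermatids, which stayed at 0.105 of the type B signal. Decorin is a product of connective tissue cells, and the 24 measured myoid and fibroblast genes, Dcn included, were low in pachytene as well: their summed signal was 13869 in type A, 23920 in type B, 1970 in pachytene and 3289 in round spermatids, and 24, 14 and 14 of them exceeded the floor in the last 3. Actg2, a smooth muscle actin, read 223.9 in pachytene and 1519 in round spermatids, on a probe set with a special ending. The higher sum in round spermatids came from Actg2 and from Dcn. Without these genes the sum was 1690 in pachytene and 1478 in round spermatids, and the median of the list for round spermatids minus pachytene was 0.00. Of the listed myoid and fibroblast genes Dcn was the only dip at 4-fold (4.17%, against 0.15% of all measured genes). Fn1, fibronectin, joined it at 2-fold (8.33%, against 2.39%). The part of such cells in the dip of Dcn was not tested.

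Dips with pachytene at the floor were Ccnd3, Spsb1, Oplah, Dek, Smc3, Denn2b, Atp10b and Hat1. Ccnd3, the G1 cyclin D3, read 226.2 in type A, 295.9 in type B, 17.1 in pachytene and 542.9 in round spermatids, at least 5.92-fold and at least 10.9-fold under the neighbours, and its other measured probe set had a depth of 0.00. Dek, a chromatin protein, read 648.5, 555.05, 37.5 and 218.1, at least 11.1-fold under type B and at least 4.36-fold under round spermatids. Hat1, a histone acetyltransferase of new histones, read 319.6, 303.3, 39.0 and 208.3. Of the spermatogonial list 2 of 28 members (7.14%) dipped, Ccnd3 and Sall4, against 0.15% of all measured genes. At 2-fold 6 (21.4%) did, against 2.39%, among them the X-linked genes Rhox13, Usp26 and Esx1, with Dmrt1. The median of the list was -1.76 for pachytene minus type B and 0.18 for round spermatids minus pachytene. Of the 28, 19 (67.9%) were at least 2-fold under type B, against 22.5% of all measured genes. Of these 19, 6 were 2-fold higher again in round spermatids.

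Summed marker signals of the compared cell types and of other cells also differed among these samples. The 6 spermatogonial markers summed to 2305 in type B, 267.9 in pachytene and 932.03 in round spermatids, of which Sall4 made 587.8. Markers of round spermatids (6 genes) summed to 200.6 in type B, 2262 in pachytene and 30580 in round spermatids. Prm1, a protamine, read 1321 in pachytene, and Acrv1 and Prm2 were under the floor there. The Prm2 probe set read only 67.3 in round spermatids, close to the floor, so its low pachytene reading says little. Sertoli cell genes summed to 11250 in type B, 6709 in pachytene and 2709 in round spermatids, and 20, 21 and 12 of 25 exceeded the floor. Amh was under it in all, Sox9 read 734.4, 409.8 and 394.03, and Wt1 131.3, 78.4 and 34.8. Large parts of the sum were Clu (2190, 1717 and 214.1) and Aard (1783, 464 and 163.3). Of 24 measured members 8 were at least 2-fold under type B in pachytene and 1, Tsx, at least 2-fold over it. Cst12 read 477.9, 760.3 and 659.1, and Fshr 159.5, 172.5 and 183.3, so these did not fall. Leydig genes summed to 3399, 2574 and 1477 (14 on the arrays) and leukocyte, blood and endothelial genes to 3429, 1020 and 1089 (22 on the arrays). No Sertoli or Leydig list member (24 and 12 measured) was transient at 4-fold, which the overall share of 0.795% allows. At 2-fold Tsx (4.17%) and Cyp11a1 (8.33%) were, against 4.8% of all measured genes. The part of other cells in the transient genes and dips was not tested.

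No X-linked gene was transient. At 4-fold 0 of 387 measured X-linked genes lay over both neighbours, against 101 of 12267 autosomal genes (0.823%). At that share only few would be found among 387 genes. At 2-fold 3 X-linked genes (0.775%) lay over both neighbours, against 605 of 12267 autosomal genes (4.93%). The 3 were 1700018G05Rik, Chst7, a sulfotransferase, and Tsx, a testis transcript next to Xist. For the first pair the type A signal was at least as high: 1700018G05Rik read 141.3 in type A, 37.7 in type B, 139.3 in pachytene and 5.50 in round spermatids. Tsx read 46.9, 14.9, 165.4 and 70.2. The lowest share on any autosome at 2-fold was 1.90%, on chromosome 18, and the highest 7.25%, on chromosome 14. At 4-fold chromosome 14 also had the highest share of the autosomes, 8 of 455 (1.76%), against 0.823% of autosomal genes. Rnf17, Piwil2 and Pbk are among the 8. Rnf17 is a marker that came with the definition of the comparison, so it supports no count.

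Dips were more frequent on the X chromosome, mainly at 2-fold. At 4-fold 2 X-linked genes (0.517%) and 17 autosomal genes (0.139%) dipped. At 2-fold 34 X-linked genes (8.79%) did, against 268 autosomal genes (2.18%), with autosomes between 1.35% on chromosome 15 and 3.66% on chromosome 13. Pachytene signals of X-linked genes were low against type B: the median log2 difference to type B was -1.03 for X and -0.22 for autosomes, which ranged from -0.31 to -0.12. Of X-linked genes 18.6% were at least 4-fold under type B and 0.258% at least 4-fold over it, against 4.84% and 7.88% of autosomal genes. In type B 91.7% of measured X-linked genes exceeded the floor, in pachytene 52.2% and in round spermatids 58.7%, while autosomes went from 88.7% to 80.1% and 80.1%. Measured means over the floor in at least 1 of these cell types, so these shares are set in part by that filter. Of 196 X-linked genes at least 2-fold under type B, 34 (17.3%) were at least 2-fold higher again in round spermatids, against 268 of 2645 autosomal genes (10.1%).

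After Prdx4, the X-linked genes of largest depth on the floored scale were Pdk3, Haus7, Eif1ax, Med12 and Vbp1; with pachytene at the floor in Haus7, Med12 and Vbp1, the depths of these are bounds and the order depends on the floor. Pdk3, a kinase that inhibits pyruvate dehydrogenase, read 983.9 in type A, 789.5 in type B, 141.8 in pachytene and 1485 in round spermatids, 5.57-fold and 10.5-fold under its neighbours. Eif1ax, a translation initiation factor, read 1310, 1945, 300.3 and 1022, 6.48-fold under type B and 3.40-fold under round spermatids. Haus7, of the spindle complex augmin, read 665.5, 304.2, 23.5 and 185.2, Med12, of the Mediator complex, 383.4, 277.6, 39.0 and 161.9, and Vbp1, a prefoldin subunit, 400.6, 513.9, 32.8 and 161.9. In Prdx4 and Pdk3 round spermatids read over type B, in the other 4 below it. Of the 4 measured Y-linked genes Eif2s3y, a translation factor, had this shape with 162.4 in type A, 174.4 in type B, 19.2 in pachytene and 193.8 in round spermatids, at least 3.49-fold and at least 3.87-fold under. Uba1y read 260.5, 187.7, 30.8 and 82.6, Kdm5d 154.6, 109.0, 16.4 and 16.1, and Sry exceeded the floor in pachytene only, at 52.5.

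**Figure D4:**
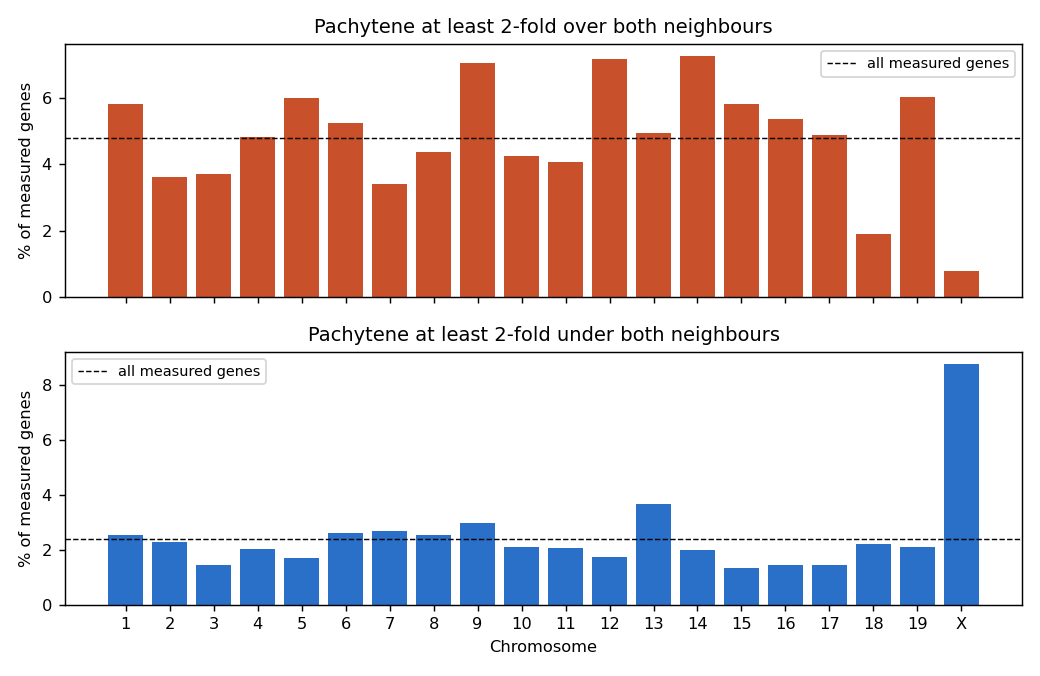
Percentage of measured genes on chromosomes 1 to 19 and X that were at least 2-fold over both neighbours in pachytene (top) or at least 2-fold under both (bottom); dashed lines give all measured genes. The X chromosome has the lowest bar at the top, 0.775%, and the highest at the bottom, 8.79%, while the autosomes lie between 1.90% and 7.25% and between 1.35% and 3.66%.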

How the data were processed

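The authors deposited intensity signals per probe set for total RNA of 4 cell types on 3 designs, from MAS5, per the submitters' processing notes, whose version and settings are not given in the sources used here. Deposited values had a 2% trimmed mean of 125.02 to 125.1 on every array. From them each array was scaled to the mean trimmed mean of its design, signals were floored at 0.4 of it, and log2 was taken. Folds are within a design, on this floored scale. A single gene symbol was available for 29131 of the 36701 probe sets that are not controls (724 had several, 6846 none), and 29044 matched RefSeq's GRCm38.p6 table, which gave symbols and chromosomes. A gene was represented by its probe set with the largest 4-cell-type mean. No test was run (1 array per group), and the scripts (Python 3.11.15, pandas 2.3.3, numpy 2.4.6) were tested on simulated data. Members and lists were chosen with earlier results of these data known. Named were the 8 largest and 8 highest bounds per direction, the markers, up to 4 called members per list, genes next to the limit, up to 6 X-linked dips, and the 3 profiles nearest each marker by Euclidean distance of centred log2 values; other named genes, levels of further list members and the 7 further transient genes were chosen after their values were seen. Alternatives changed scaling, floor, fold limit, probe set choice, design and the cell types compared.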

Additional observations from a re-analysis of the deposited data

How the results depend on the processing

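No paired analysis was possible because there is 1 array per cell type and design, and no array could be left out within a design. Scaling to a common median, by quantiles or not at all, the highest probe set in any cell type, the mean over a gene's probe sets within the design that has most of them, leaving out special endings and adding type A spermatogonia kept both counts within 1.5 times the 101 transient genes and 19 dips (73 to 149 and 14 to 20). The genes called were not all the same. Of the 101 and the 19, median scaling kept 100 and 12, quantile scaling 80 and 16. The mean over probe sets kept 68 and 13, leaving out special endings 84 and 15, and adding type A spermatogonia 79 and 16. Median, spike-in and quantile scaling moved the median of pachytene minus type B by 0.35, 0.48 and 0.17. Spike-in scaling gave 166 transient genes, 89 of them among the 101, and 8 dips, 7 among the 19. A floor at 0.2 or 0.8 of the trimmed mean gave 75 or 7 dips, no floor 325 and a floor at each array's highest negative control 63. At 2-fold there were 610 transient genes and 304 dips, at 8-fold 12 and 2, and over single probe sets 155 and 36. U74Av2 alone gave 22 transient genes, and the other designs without it 9 dips. The percent of measured X-linked genes that dip was 2.75% at the lower floor, 6.21% with no floor, 3.09% at the negative controls, 8.79% at 2-fold and 0.00% without U74Av2, with 1.75% on U74Av2 only and 0.867% without special endings. The log2 height or depth turned for Eif4e2 to -0.96 under quantile scaling. With the mean within the design of most probe sets, which can leave out the probe set used here (in Dnm3 and Ino80c it leaves the other one alone), it turned to -0.74 for Cracd, -0.0092 for Uggt2, -0.30 for Celsr2, -0.53 for Dnm3, -0.0015 for Eif4e2, -0.21 for Ino80c and -0.22 for Spsb1. Without special endings it was -0.75 for Cracd, -1.20 for Uggt2, -0.093 for Celsr2 and -0.63 for Dazap1. On U74Av2 only it was -0.093 for Celsr2, -0.63 for Dazap1, -0.18 for Eif4e2, -0.21 for Ino80c and -0.44 for Spsb1. Against type A spermatogonia as well it was -0.73 for Cwf19l2. The cause of these changes was not tested beyond what each setting alters. Precision is limited by the single array per group and, for dips, by pachytene signals near background.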
